A study of Arabidopsis thaliana with 6 samples.

Results

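Wild-type pollinated flowers of Arabidopsis thaliana were described from 3 of the 6 arrays of the series, those whose titles name wild-type flowers and biological replicates 1 to 3. The plants were of the Ler accession and the flowers at stage 14 to 15, per the labels; the genotype field reads wild-type, while the growth and collection fields of the same samples repeat the wording of the pop2-1 mutant, so growth at 21 °C and a 16-hour photoperiod is stated in a field that names the mutant. The mutant arrays, which make up the other group, were not compared here. Each array was an Affymetrix ATH1 GeneChip, on which several short probes (a probe set) report on a transcript, and each value is a MAS5 signal, a linear hybridisation intensity. Of 22746 non-control probe sets, 13513 have exactly 1 annotated gene, and these 13513 were averaged over the 3 arrays and ranked. The labels call the replicates biological but do not say which plants each came from.

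At these stages the flower is open, pollen has been shed and lies on the stigma, and pollen tubes grow through the transmitting tract to the ovules. Nectaries at the stamen bases secrete sugar, the petals and stigma emit volatiles, and the sepals and the ovary wall are green tissues that photosynthesise. After fertilisation the ovary starts to grow into a fruit, while sepals, petals and stamens move toward withering and shedding.

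A MAS5 signal depends on how well the probes bind as well as on how much transcript there is, so the ranking by brightness is an approximate guide to abundance. For 98 genes with more than 1 probe set and the brighter one above the median signal of 156, the mean signals of the brightest and dimmest probe set of the same gene differed by a median of 3.15-fold (quartiles 1.82 and 5.38), and 70 of the 98 differed by more than 2-fold. The ranking also covers only part of the array. Among the 100 brightest non-control probe sets, 24 had 1 annotated gene, 8 had several genes and 68 were not listed in the annotation used here. What follows holds for the annotated transcripts and not for the whole flower transcriptome.

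Signals of the 13513 probe sets ran from 0.0659 to 20228. Mean signals over 1000 were found for 1531 of them (11.3%), and mean signals under 50 for 4357 (32.2%). The 100 brightest, each from a different gene, took 14.4%, 14.8% and 14.5% of the summed signal of the 13513 on replicates 1, 2 and 3 (14.6% ± 0.165, SD, n = 3). The last probe set inside the 100, of the tubulin gene TUA6, averaged 6617 and the first outside averaged 6585, so the limit falls in a continuous range. Classes of function were assigned to the 100 by hand after the ranking was known, and roles of genes that the tables give only by locus number come from general knowledge of those loci.

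**Figure D1:**
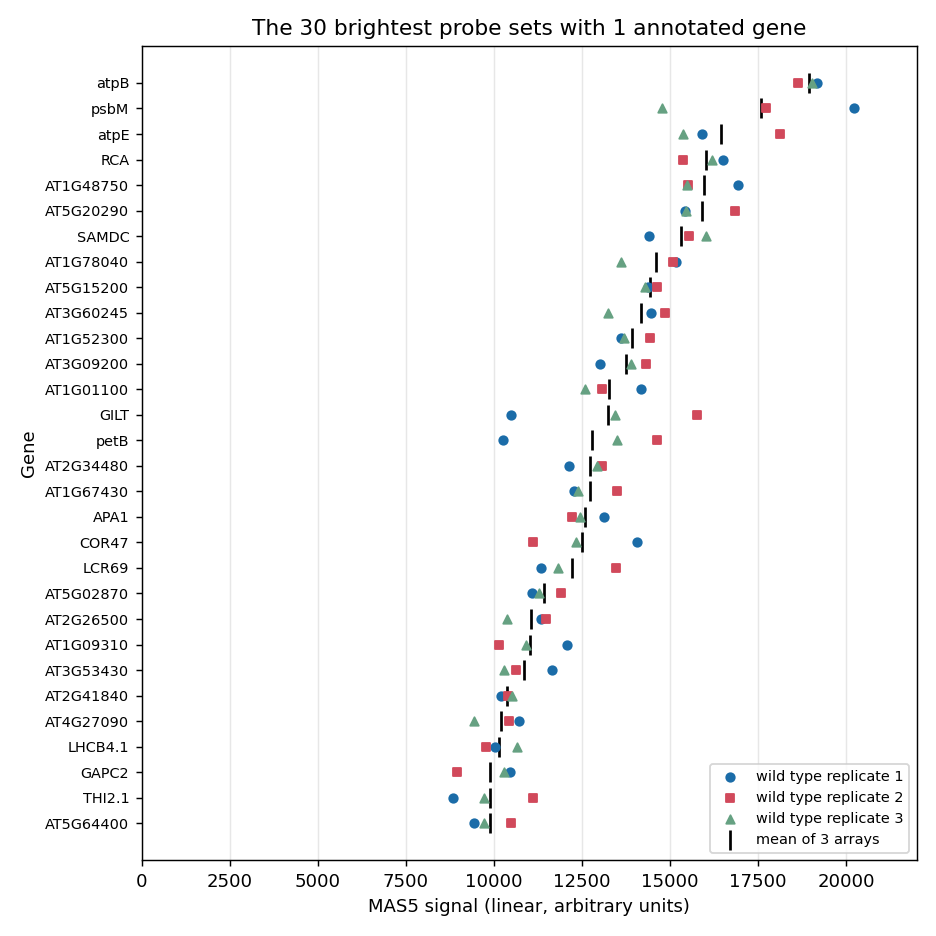
MAS5 signal (linear scale from 0, horizontal axis) of the 30 brightest probe sets with 1 annotated gene in wild-type pollinated flowers; coloured symbols are the 3 arrays and black ticks their mean. Plastid genes (atpB, psbM, atpE) lead, replicates mostly lie close together, and GILT and petB have their lowest signal on replicate 1.

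The largest class among the 100 was the protein synthesis machinery. It held 46 probe sets, for proteins of the cytosolic ribosome and a translation elongation factor, with mean signals from 6748 to 15902. All 46 have only a locus number, as do 11933 of the 13513. None of the 9 genes listed for translation had a listed probe set. The size of the class therefore depends on which bright probe sets are annotated. The share of such genes among all 13513 was not counted. The small-subunit ribosomal protein gene AT5G20290 gave signals of 15426, 16841 and 15441 on replicates 1, 2 and 3. AT5G15200, also of the small subunit, gave 14386, 14631 and 14280, and the large-subunit gene AT1G52300 gave 13615, 14424 and 13695. These are nearly level signals, with coefficients of variation (CV, the SD over the mean) of 5.11%, 1.25% and 3.20% over the 3 arrays. Over the class the median CV was 4.85%, with a range from 1.19% to 11.9%. Acidic stalk proteins, which recruit elongation factors to the ribosome, were among the brightest of the class, with 13741 ± 661 for AT3G09200 and 13280 ± 812 for AT1G01100 (SD, n = 3). Ribosomal proteins are encoded by small families of near-identical genes, so a probe set named for a single member may also bind transcripts of its relatives.

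**Figure D2:**
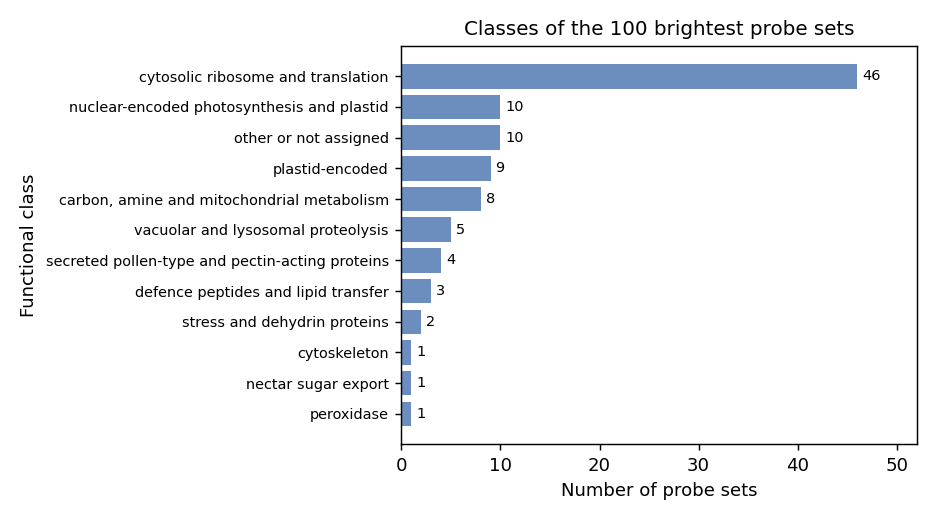
Number of probe sets (horizontal axis) in each functional class among the 100 brightest with 1 annotated gene. Protein synthesis accounts for 46, plastid-encoded genes for 9 and nuclear-encoded photosynthesis and plastid proteins for 10. These counts depend on which bright probe sets are annotated.

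Transcripts of the plastid genome filled the top 3 ranks and 9 of the 100. The plastid genome encodes core subunits of the photosystems, the cytochrome b6f complex and the plastid ATP synthase, together with parts of the plastid's own gene expression machinery. The brightest was atpB, the β subunit of the ATP synthase, with signals of 19165, 18642 and 19024. Its neighbour on the genome, atpE, encodes the ε subunit and gave 15898, 18112 and 15358. The small photosystem II subunit gene psbM gave 20228, 17719 and 14763, so its replicates spread more widely (CV 15.6%) than those of atpB (1.43%). Other plastid genes among the 100 were petB (12790 ± 2262) of the cytochrome b6f complex, atpA (9809 ± 1503), the photosystem I genes psaJ (9215 ± 1487) and psaB (8299 ± 1615), the ribosomal protein gene rps4 (8969 ± 937) and the protease subunit gene clpP (7968 ± 1398), each SD with n = 3. Of all 69 plastid probe sets, 60 were above the median of the 13513 and 41 above 1000, with a median signal of 1265. Signals thus differed widely within this genome. The gene rbcL, named after its values had been seen, gave 885, 1087 and 921, far below psbM. Whether the arrays report plastid transcripts as well as nuclear ones was not tested, so these ranks describe signal and not abundance.

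Mitochondrion-encoded transcripts had low signals on the same arrays. They were recognised by gene symbols that begin with nad, cox, ccb, matR or orfX. Any mitochondrial gene with another symbol would be counted as nuclear. Of 23 probe sets so recognised, for 16 genes, 5 were above the median of the 13513 and 1 was above 1000. That probe set, for ccb382, a cytochrome c maturation gene, gave 883, 1516 and 1051. The oxidase subunit gene cox1 averaged 634 ± 121 (SD, n = 3), and the median over the 23 was 88.7. Several of the 23 belong to the gene nad1, so this median counts that gene repeatedly. Plastid transcripts took 2.66%, 3.39% and 2.91% of the summed signal on replicates 1, 2 and 3. The 23 mitochondrial probe sets took 0.0490%, 0.0685% and 0.0507%. How far the signals and shares of either organelle reflect transcript amounts was not tested.

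Nuclear genes for photosynthesis were bright throughout. Of the 49 genes listed for photosynthesis, 8 were measured, and all 8 exceeded 1000 with a median mean signal of 7031. RCA, the activase that keeps the CO2-fixing enzyme Rubisco working, gave 16516, 15370 and 16194. LHCB4.1, an antenna protein of photosystem II, gave 10032, 9783 and 10654. The photosystem I subunit gene PSAE-1 gave 8261, 9384 and 10419, with replicate 1 lowest and replicate 3 highest. PSBW and PSBY, small proteins of photosystem II, averaged 7251 ± 218 and 6812 ± 248, and the Calvin cycle kinase gene PRK 5669 ± 220 (SD, n = 3 each). The class of 10 nuclear-encoded photosynthesis and plastid proteins among the 100 also held ATPC1, the γ subunit of the plastid ATP synthase, and the genes for a thylakoid-curving protein (AT4G01150) and a geranylgeranyl reductase (AT1G74470) of chlorophyll synthesis. Outside the 100, PORB, which makes chlorophyllide in the light, averaged 4466 ± 403, SBPASE, a Calvin cycle phosphatase, 5016 ± 57.2, and HPR, a photorespiratory reductase, 4187 ± 151 (SD, n = 3 each). These 3 genes were named after their values had been seen. Flowers are mixed organs, and in such bulk RNA fewer cells of a type and less RNA per cell cannot be told apart.

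Genes of carbon, amine and mitochondrial metabolism made up 8 of the 100. SAMDC, the S-adenosylmethionine decarboxylase of spermidine and spermine synthesis, gave 14406, 15533 and 16033. The glycolytic genes GAPC2 (9891 ± 823) and TPI (8686 ± 454) and the respiratory electron carrier gene CYTC-1 (8962 ± 384) stood in the same class (SD, n = 3 each). FDH, a formate dehydrogenase, gave 8737, 6694 and 7708, which is lowest on replicate 2. All 8 measured aldehyde dehydrogenase genes (ALDH), enzymes that detoxify or oxidise aldehydes, were above the median of the 13513, and 6 exceeded 1000, led by ALDH7B4 at 4062 ± 167 (SD, n = 3).

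Proteins of the vacuole and of protein breakdown were a further group, with 5 of the 100. APA1, an aspartic protease, gave 13138, 12202 and 12429. GAMMA-VPE, the processing enzyme that activates other vacuolar proteins, gave 8762, 8799 and 8616, a CV of 1.11%. The papain-type protease gene AT4G16190 averaged 9780 ± 446 (SD, n = 3). GILT, named after a lysosomal thiol reductase first described in mammals, was the member with the widest spread of the 100, with signals of 10495, 15772 and 13428 (CV 20.0%). The serine carboxypeptidase-like genes scpl48 and SCPL49 averaged 4960 ± 400 and 4270 ± 298. Of the 29 measured members of that family 17 (58.6%) were above the median. That is near the 50% of all probe sets that lie above it by definition. All 9 measured ATG8 genes, whose ubiquitin-like products coat the membranes of autophagosomes, were above the median and 6 of 9 above 1000. ATG8F led them with 4149, 3649 and 3964. Of 4 measured senescence and abscission genes 3 were above the median. SAG29, which is also a SWEET sugar transporter, averaged 1601 ± 243, WRKY53, a senescence and defence regulator, 504 ± 172, WRKY6, a transcription factor of senescing leaves, 255 ± 5.13, and ADPG1, a polygalacturonase of abscission zones, 128 ± 22.5 (SD, n = 3 each).

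Defence peptides and proteins of the surface were bright for a few genes and near the lower end for their relatives. THI2.1, a thionin with antimicrobial activity, gave 8836, 11109 and 9716. The defensin gene LCR69, also called PDF2.2, gave 11339, 13473 and 11805, and its relative LCR68 averaged 3154 ± 174 (SD, n = 3). On all 3 arrays THI2.1, LCR69 and LCR68 were above 1000, and in each of them replicate 2 was highest and replicate 1 lowest. The other 6 of 9 measured defence genes, PDF1.1 (listed as LCR67), PDF1.2, PDF1.2b, PDF1.4, PDF2.1 and THI2.2, had mean signals from 7.78 to 39.4. AT1G48750, of the lipid transfer protein superfamily, gave 16933, 15504 and 15496, whereas AT2G18370, the 1 measured member of the list for lipid transfer and cuticle, averaged 87.9 ± 12.8 (SD, n = 3). The dehydrin gene COR47, whose product protects cells that lose water, gave 14069, 11108 and 12319, with replicate 1 highest. The 10 of the 100 brightest that were given no class included AT1G09310 (11034 ± 974) and AT5G64400 (9876 ± 546), each SD with n = 3.

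Marker lists for parts of the flower were chosen with earlier results of these data known, so they describe the labelled tissue and do not check it. All 4 measured genes of 13 listed for nectary and scent were above the median, 3 of them above 1000. SWEET9, the exporter that releases sucrose into nectar, gave 7367, 7027 and 7048. Of 16 SWEET genes measured under a symbol, those listed as SAG29 and AtVEX1 included, 13 were above the median and 8 above 1000, among them SWEET1 (4350 ± 357), SWEET4 (4318 ± 144), SWEET11 (3040 ± 216) and SWEET13 (2138 ± 282), each SD with n = 3. The sesquiterpene synthase gene AT5G44630 gave 4563, 5219 and 4525, and a second terpene synthase gene, AT3G25810, gave 1651, 1819 and 1936. BSMT1, which makes methyl salicylate and methyl benzoate, was at 154, 185 and 133, around the median of all 13513. JMT, which makes the volatile methyl jasmonate, averaged 1951 ± 130, and BPEp, a petal transcription factor gene, 2043 ± 273 (SD, n = 3 each), both named after their values had been seen.

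**Figure D3:**
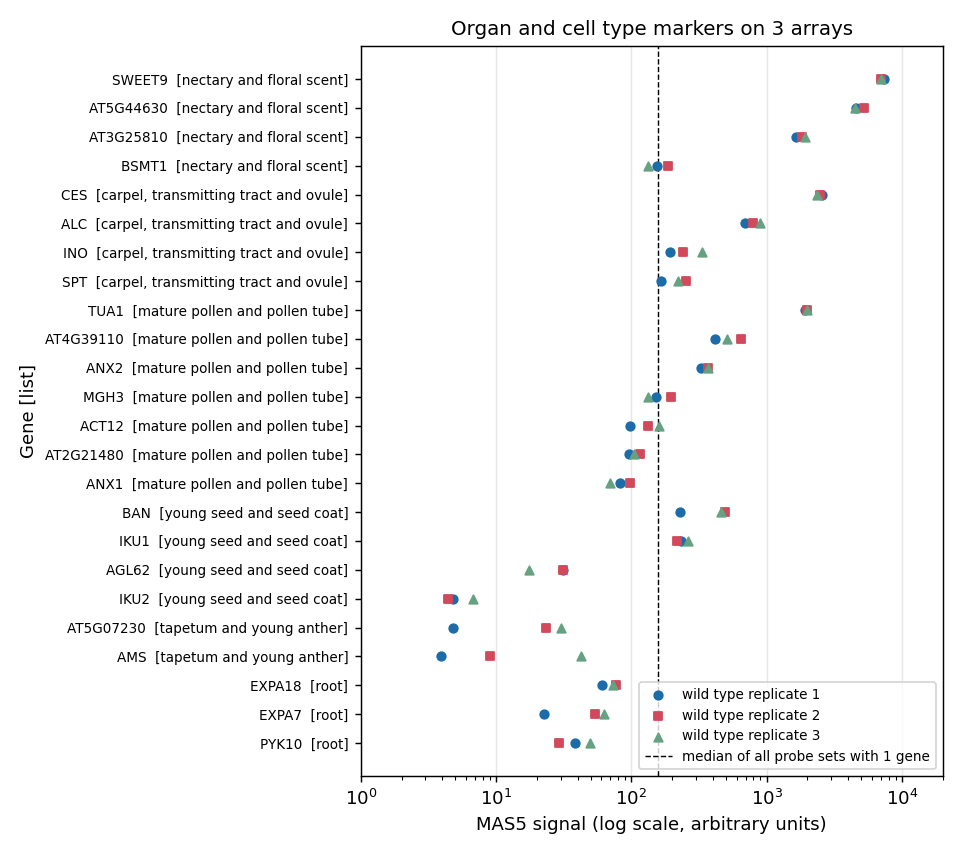
MAS5 signal (log scale, horizontal axis) of each measured gene of 6 marker lists on the 3 wild-type arrays; the dashed line is the median mean signal, 156, of the 13513 probe sets. Nectary, scent and carpel genes lie around or above the line, pollen genes on both sides, and the tapetum and root genes below it.

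Carpel genes were measured in 4 of 14 cases, and all 4 were above the median. CES, a bHLH regulator of the reproductive tract, gave 2566, 2473 and 2347. ALC, needed for fruit opening, gave 697, 789 and 887, and SPT, its relative in carpel margin development, 167, 252 and 223. INO, an ovule integument regulator, stood at 193, 241 and 330, so replicate 3 was highest. FER, the receptor kinase through which the ovule receives the pollen tube, was named after its values had been seen and varied little, at 2135, 2145 and 2168.

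Pollen was represented by genes of very different brightness. On the pollen and pollen tube list 7 of 23 genes were measured, and 4 were above the median. TUA1, an α-tubulin of pollen, gave 1914, 1991 and 1988, and the receptor kinase gene AT4G39110, which acts in tube integrity, gave 418, 642 and 506. ANX1, a kinase of the same family, averaged 83.6 ± 14.2, and ANX2 353 ± 24.2 (SD, n = 3 each). MGH3, a histone of male gametes, gave 151, 195 and 133. All 4 of the genes above the median had their highest signal on replicate 2, though only 2 of 4 did once the arrays were scaled to equal medians. Among the 100 brightest, 4 probe sets belong to secreted proteins of types found in pollen and in pectin metabolism. They are AT1G78040 (14615 ± 882) and AT5G45880 (8227 ± 1004) of the Ole e 1 pollen allergen type, the pectin methylesterase inhibitor-type gene AT1G10770 (7718 ± 378) and the pectate lyase gene AT3G01270 (7018 ± 944), each SD with n = 3. Replicate 2 gave the highest signal in 3 of these 4 and replicate 1 the lowest in 3 of them.

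The few measured tapetum and root genes were dim, while the young seed list was mixed. Of 14 listed tapetum genes 2 were measured. A9 (AT5G07230) and AMS, which work in the tapetum of young anthers, had signals of 4.79, 23.3 and 30.1 and of 3.89, 9.05 and 42.4. The summed signal of these tapetum genes was 8.67, 32.4 and 72.6 on replicates 1, 2 and 3. The 3 measured of 9 listed root genes, EXPA18, EXPA7 and PYK10, averaged from 39.0 to 70.4. The control probe sets for Bacillus genes, 12 in number, reached at most 34.4, 47.7 and 42.3 on the 3 arrays. The signals of A9 stayed below these values on all 3 arrays, those of AMS on replicates 1 and 2. In the young seed list 4 of 14 genes were measured, and 2 of these 4 were above the median. BAN, of tannin synthesis in the seed coat, gave 229, 494 and 458 and IKU1, a regulator of seed size, 234, 218 and 263. AGL62 averaged 26.7 ± 7.99 and IKU2, a kinase of seed size, 5.30 ± 1.26 (SD, n = 3 each). None of the genes fixed for floral organ identity had a listed probe set, and their levels were not analysed here.

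Of the wall-modification list 6 of 7 measured genes were above the median and 4 above 1000. Of 18 expansin and expansin-like genes, which loosen walls during growth, 8 were above the median and 6 above 1000. EXLA1 led with 4133, 3305 and 3680, followed by EXPA8 (2777 ± 329), EXPA4 (2146 ± 128), EXPA15 (1967 ± 83.7) and EXPB3 (1608 ± 19.7), each SD with n = 3. EXPB3 had the closest replicates of these, with a CV of 1.22%. Of 9 xyloglucan endotransglucosylase/hydrolase genes (XTH), which cut and rejoin wall xyloglucan, 5 were above the median and 0 above 1000. All 7 measured tubulin genes were above the median, from 443 to 6617, with TUA6 at 6994, 6403 and 6454. The reproductive actin gene ACT11 averaged 1031 ± 72.8 (SD, n = 3).

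Flavonoid genes were in the middle range, with all 5 measured above the median and 0 above 1000. UGT78D1, a flavonol rhamnosyltransferase, averaged 979 ± 115, and DFR, the reductase that leads to anthocyanins and tannins, gave 787, 1080 and 793. The metallothionein gene MT1C, of a family that binds metals, gave 3857, 3920 and 4025. BCAT4, which starts glucosinolate side-chain elongation and was the 1 measured gene of that list, averaged 85.3 ± 14.3 (SD, n = 3).

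Some families of specialised metabolism, and the CHX family of transporters, had few members above the median. The UDP-glycosyltransferases (UGT) had 16 of 47 above the median of the 13513 and the cytochromes P450 named CYP 8 of 24. Most of these 24 belong to a single subfamily, CYP71B, so the count does not describe cytochromes P450 in general. Of 7 CHX cation/H+ exchanger genes, 0 were above the median and the brightest averaged 113. In contrast, 9 of 11 RALF-like signalling peptide genes and all 6 NRPB genes for RNA polymerase II subunits were above it. So were 13 of 16 genes of another transport family, SWEET. Families were gathered by symbol, so members known only by locus number are not counted, and 50% of all probe sets lie above the median by definition.

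Replicates lay close together for bright transcripts and far apart, relative to their mean, for dim ones. The median CV was 6.50% in the brightest of 10 equal bins of probe sets (mean signal over 1122), 12.1% in bin 6 (156 to 258) and 71.7% in bin 2 (10.8 to 23.8). Over the 6756 probe sets above the median it was 8.58%, against 35.1% for the rest. Of the 100 brightest, 80 had a CV under 10%, with a median of 5.31%. Spearman correlations between pairs of arrays across the 13513 probe sets were 0.973, 0.974 and 0.976, given as a description across transcripts, which are not independent replicates. No more than 1 probe set had an identical value on any pair of arrays, so no array's values are a copy of another's.

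**Figure D4:**
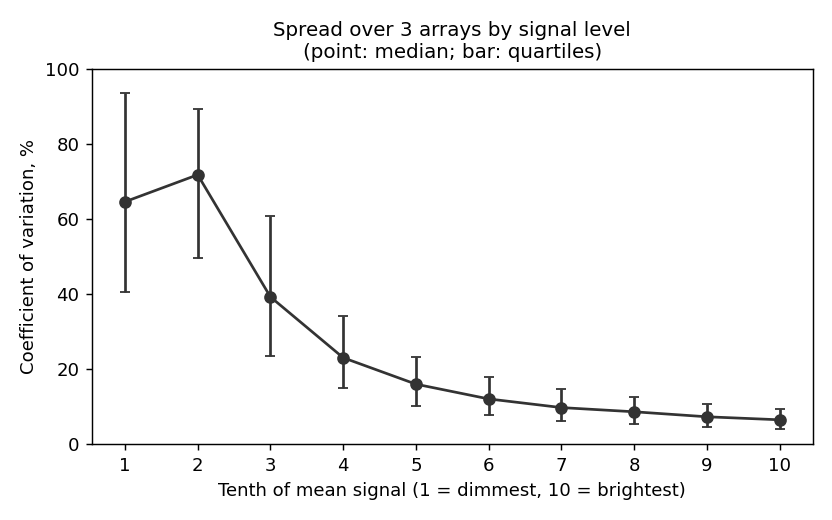
Coefficient of variation over the 3 wild-type arrays (percent, vertical axis) in 10 equal bins of mean signal (horizontal axis, dimmest to brightest); points are medians and bars run between the quartiles. The median is 71.7% in bin 2 and 6.50% in the brightest bin.

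Among the 500 brightest, the least variable was ALDH6B2, a mitochondrial dehydrogenase of valine breakdown, with signals of 3073, 3073 and 3074 (CV 0.0212%). The next were AT4G02230 (CV 0.242%), AT1G67350 (0.287%), AT1G52600 (0.414%), AT3G07480 (0.441%), CCL (0.537%), AT4G15545 (0.747%) and AT5G23900 (0.926%). These 8 were picked as the extreme of 500, so their CVs describe the selection and carry no test. CCL, whose unstable transcript cycles with the circadian clock, was nearly level at 5510, 5554 and 5497, while GI, a clock component named after its values had been seen, gave 556, 662 and 394.

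The most variable of the 500 were led by plastid genes. The ATP synthase gene atpH gave 2051, 4478 and 3110 (CV 37.9%), psbA, encoding the D1 protein of photosystem II, 1940, 3778 and 2485 (34.5%), ndhD 3119, 5385 and 3715 (28.8%) and psbH 2912, 4711 and 4714 (25.3%). In each of these replicate 1 was lowest. The nuclear members were AT5G38760 (25.2%), AT4G15750, an inhibitor-type gene of pectin methylesterase (24.9%), the thaumatin-type gene AT2G28790 (22.9%) and UGT85A3, a glycosyltransferase gene (22.4%). AT2G28790 gave 4099, 6495 and 6007, and UGT85A3 gave 3103, 1961 and 2721, so the first was lowest on replicate 1 and the second highest there.

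Plastid transcripts moved together between the arrays. Of the 60 plastid probe sets above the median, 53 were highest on replicate 2 and 50 lowest on replicate 1. Over the 6691 nucleus-encoded probe sets above the median, 37.1% were highest on replicate 2 and 37.2% lowest on replicate 1. On the log2(signal + 16) scale the median deviation of the 60 from their mean over the 3 arrays was -0.29 on replicate 1, 0.30 on replicate 2 and -0.01 on replicate 3. The 5 mitochondrial probe sets above the median deviated by -0.27, 0.38 and -0.11. Some probe sets went the other way, such as psbM, which was highest on replicate 1, and rpl32, a plastid ribosomal protein gene (2041, 1682 and 2006), lowest on replicate 2. The order of the arrays in plastid transcripts held after quantile normalization (-0.29, 0.28 and -0.01) and after scaling to equal medians (-0.24, 0.25 and -0.02).

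The 2 young seed genes above the median deviated by -0.34, 0.14 and 0.21 at their median, with BAN lowest on replicate 1 and IKU1 on replicate 2. The 8 measured nuclear photosynthesis genes deviated by -0.02, -0.06 and 0.06 on replicates 1, 2 and 3, and by 0.04, -0.10 and 0.05 with equal medians, where the sign on replicate 1 turned. The 46 probe sets for protein synthesis deviated by -0.04, 0.04 and 0.00, but with equal medians these became 0.01, -0.01 and 0.00, so no order of the arrays is given for them. The 4 pollen genes above the median deviated by -0.08, 0.17 and 0.00, and by -0.03, 0.12 and -0.01 with equal medians.

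**Figure D5:**
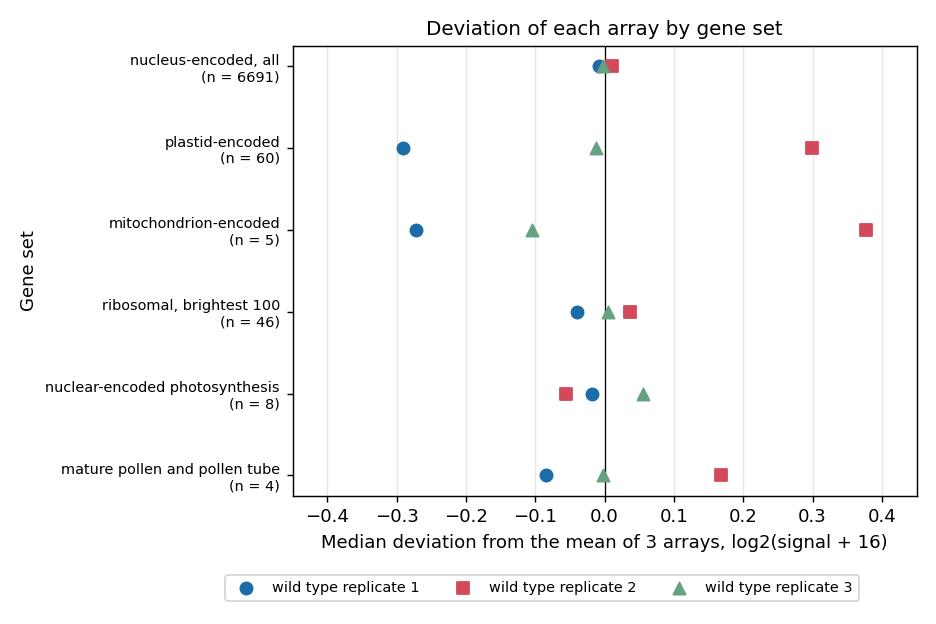
Median deviation of each array from the mean of the 3 (log2(signal + 16), horizontal axis) for probe sets above the median signal, by gene set; n is the number of probe sets. Plastid-encoded and mitochondrion-encoded sets spread from about -0.29 and -0.27 on replicate 1 to 0.30 and 0.38 on replicate 2, while the 6691 nucleus-encoded sets stay near 0.

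Control probe sets also differed between the arrays. The ratio of the 3' to the 5' actin probe set, which grows when RNA is degraded or copied short, was 2.16, 2.93 and 1.72 on replicates 1, 2 and 3. That of GAPDH was 1.04, 0.972 and 0.927, and that of ubiquitin 0.765, 0.928 and 0.869. Neither followed the full order of actin. Actin and ubiquitin were both highest on replicate 2, where plastid transcripts were also highest, while GAPDH was highest on replicate 1. The probe set for 25S ribosomal RNA gave 3505, 822 and 1050, highest on the array where plastid transcripts were lowest. The part of these differences in the spread of the plastid transcripts was not tested.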

How the data were processed

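RNA of whole pollinated flowers was hybridised to 1 array per sample. The deposited values are MAS5 signals, a linear intensity per probe set, made by the authors with MAS5 per the submitters' processing notes; the version and scaling target are not given in the sources used here. The deposited arrays share a 2% trimmed mean of 500.04, so a signal is relative to its own array's average. No detection call entered any step, and the number of arrays limits precision.

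Gene names were taken from GEO's platform annotation (13513 with 1 gene, 503 with several, 8730 not listed), updated by gene number to the TAIR10.1 gene table, which held 13436 of the 13513; 1580 have a symbol and 11933 a locus number. Groups came from the titles. Mean, SD and CV over 3 arrays were computed with Python 3.11.15, numpy 2.4.6 and pandas 2.3.3, and were checked on simulated data. A pseudocount of 16 was used for log2 deviations. No test was made, as 1 group was described.

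Genes were named by rule: the 30 brightest, up to 6 per list, the 8 most and 8 least variable of the 500 brightest, and examples from the 100 brightest; others are marked, and those from symbol families were chosen with values known. Of 22 gene lists 15 had a measured gene; those with none were not analysed here. Members and lists were chosen with earlier results of these data known.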

Additional observations from a re-analysis of the deposited data

How the results depend on the processing

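Other settings left the ranking nearly as it was, but they reuse the same 3 arrays and annotated probe sets. They say little about how far the ranking depends on probe binding or on annotation. Under 9 alternatives (leaving out each array, quantile normalization, equal medians, geometric means with a pseudocount of 16 or 1, the median of the arrays, 1 entry per gene) between 96 and 100 of the 100 brightest were kept. Their share of the summed signal was 14.6%; the 100 brightest of all non-control probe sets, of which 24 have 1 annotated gene, held 9.38% of the sum over all non-control probe sets. Their median CV, 5.31%, was 6.14% with equal medians, and leaving out an array gave 4.22% to 5.64%. The median CV of probe sets above the median signal, 8.58%, was 9.05% with equal medians and 15.3% with no filter. It was 7.09% when only probe sets above the 75th percentile were kept, and 6.75% to 7.54% when an array was left out. A median CV from fewer arrays tends to be lower by itself. Values with an array left out are therefore not like for like with those from 3. The median signal of the nuclear photosynthesis list was 6934 from the median of the arrays in place of 7031; the other 104 of 105 list values, and 663 of 665 values of named genes, moved by less than 1 SD over the arrays. Both exceptions were ALDH6B2, at 3071 with quantile normalization and 3076 with equal medians. For a named gene, leaving out an array or taking the median of the 3 cannot move the mean by 1 SD. Those settings could therefore show no move, and the count says little about them. The array deviations under other scalings were added after seeing the data. No paired analysis was possible because the results come from 1 group and no test. With 3 arrays an SD is itself imprecise, and signals near those of the Bacillus controls have no reliable order.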

Other observations

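Of 4898 nucleus-encoded probe sets with a mean signal over 300, 90 (1.84%) had a CV over 25%, and 31 of these were highest on replicate 1, 36 on replicate 2 and 23 on replicate 3. Over all 4898 the shares were 33.9%, 35.7% and 30.4%, so the 90 lay near that background. The 5 with the largest CV were named after their values had been seen. The widest spread was that of AT1G66850, of the lipid transfer protein type, with signals of 17.9, 335 and 788 on replicates 1, 2 and 3. AT1G72900, of the TIR domain type, gave 513, 276 and 168, the aspartic protease-type gene AT5G10770 gave 2004, 1304 and 696, and the calmodulin-like gene AT3G01830 gave 673, 535 and 229. These 3 were highest on replicate 1 and lowest on replicate 3. MSRB5, which repairs oxidised methionine in proteins, gave 362, 319 and 696, with replicate 3 highest.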
